A study of Mus musculus with 36 samples.

Results

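The 10 genes described here belong to glutathione synthesis, peroxide removal and ferroptosis control, and were followed across the liver, spleen and thymus of mice with wild-type p53 (wt) and of mice lacking the p53 C-terminus (d24). The 10 members were Slc7a11, Gls2, Gclc, Gclm, Gpx4, Gpx1, Sat1, Nqo1, Srxn1 and Txnrd1, chosen by name as the rows whose NCBI gene number carries one of these symbols. All 10 had a row in both deposited tables, among 19001 genes in the table of 18 paired-end libraries and 17697 genes in the table of 18 single-end libraries. The 36 libraries form 12 groups of 3. In the paired-end table, wt liver, spleen and thymus were taken 3 h after 2 Gy of X-rays or without treatment. The single-end table holds d24 and wt liver, spleen and thymus, all titled xray. According to its title, the study asked how the C-terminus of p53 affects gene regulation in the liver and resistance to radiation. The labels used here state no age, sex or strain and do not tie tissues to animals, so the p-values measure the spread between libraries.

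Ferroptosis is a form of cell death in which iron-dependent peroxidation of membrane lipids runs out of control. Cells hold it back by importing cystine, reducing it to cysteine, building glutathione from it, and spending glutathione on the reduction of lipid peroxides. The transcription factor Nrf2 maintains many genes of this defence through antioxidant response elements in their promoters. p53, the factor that radiation activates, is known to touch the pathway at several points, through repression of SLC7A11 and activation of SAT1 and GLS2 in human cells. The liver is a main site of glutathione synthesis and export, while thymocytes and splenic lymphocytes are among the most radiosensitive cells of the body.

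Levels below are the deposited normalised signal, reads per gene scaled to a composition-corrected library size, and a difference is the change in log2(signal + 0.5) with its standard error. The paired-end libraries held 44348579 to 81322683 reads and the single-end ones 20481048 to 38042710, so each member above a signal of 1 rested on many reads. Trp53 RNA, which a C-terminal deletion need not change, was 42.2 to 51.0 in d24 and 34.6 to 55.7 in wt liver, 145 to 236 in d24 and 91.9 to 107 in wt spleen, and 96.9 to 145 in d24 and 107 to 129 in wt thymus, and does not check the genotype labels. Cdkn1a, a p53 target that stops the cell cycle, checked the treatment labels: it was 97.7 to 162 in the 9 paired-end X-ray libraries and 3.74 to 16.0 in the 9 untreated ones. The single-end labels conflict with each other. All 9 libraries titled d24 carry the characteristic WT, and 9 libraries titled xray carry the characteristic control, namely those of d24 liver, d24 thymus and wt spleen. Cdkn1a was 319 to 416 in d24 spleen and 5.46 to 9.37 in wt spleen, 108 to 364 in d24 liver and 17.7 to 147 in wt liver, and 20.4 to 67.8 in d24 thymus and 11.3 to 16.5 in wt thymus. Genotype and irradiation therefore cannot be told apart in the single-end comparisons. Markers of each labelled tissue were present: hepatocyte markers summed to at least 281057 in every liver library, B cell markers to 460 to 4194 in the spleen libraries and thymocyte markers to at least 3587 in every thymus library. The lowest spleen sum of B cell markers lay within their range in the thymus libraries, 321 to 537.

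The promoter windows that hold an antioxidant response element core are shown because Srxn1 and Txnrd1 were called in a comparison with X-ray libraries below and Gclm, with the same core, was called in none of those. The RefSeq windows (GRCm38.p6) run from 250 bases before to 50 bases after a gene's start. A window was available for 8 members, and for the others, Gls2 and Gclc, none was. Capitals mark the core TGACNNNGC, searched on both strands.
Gclm, chr3:122245307-122245606, plus strand: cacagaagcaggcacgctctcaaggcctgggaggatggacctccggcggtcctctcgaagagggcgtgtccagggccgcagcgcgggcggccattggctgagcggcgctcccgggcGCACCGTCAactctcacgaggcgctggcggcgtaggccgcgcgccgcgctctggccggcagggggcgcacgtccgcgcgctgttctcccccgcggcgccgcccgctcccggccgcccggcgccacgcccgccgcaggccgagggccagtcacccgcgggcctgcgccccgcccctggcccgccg
Srxn1, chr2:152105274-152105573, plus strand: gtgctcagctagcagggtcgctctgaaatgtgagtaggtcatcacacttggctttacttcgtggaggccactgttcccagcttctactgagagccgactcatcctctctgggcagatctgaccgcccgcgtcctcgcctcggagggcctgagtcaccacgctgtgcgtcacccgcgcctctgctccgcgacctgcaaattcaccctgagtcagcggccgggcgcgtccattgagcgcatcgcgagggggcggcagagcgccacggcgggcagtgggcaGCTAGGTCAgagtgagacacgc
Txnrd1, chr10:82858956-82859255, plus strand: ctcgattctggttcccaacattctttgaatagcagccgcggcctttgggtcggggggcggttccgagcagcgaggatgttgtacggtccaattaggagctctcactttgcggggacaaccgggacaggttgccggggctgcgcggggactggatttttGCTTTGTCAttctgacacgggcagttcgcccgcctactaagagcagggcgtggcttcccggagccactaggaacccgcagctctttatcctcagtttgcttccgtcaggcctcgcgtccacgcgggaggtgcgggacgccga
The match lay 134 bases before the start in Gclm, 28 bases after it in Srxn1 and 92 bases before it in Txnrd1, in 1 of the 3 starts listed for that gene. None was found in the windows of Slc7a11, Gpx4, Gpx1, Sat1 and Nqo1, and none of the 8 members had a p53 half-site there. Of 32851 mouse promoter windows, 12.4% hold the core and 8.36% the p53 half-site. A match is a string of letters in this window and says nothing of binding.

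At 3 h after X-rays, 5 of the 10 members had changed in wt spleen and 3 of 9 tested in wt thymus, while none passed in liver. Sat1 was higher in both lymphoid organs, Gpx1 and Txnrd1 were higher in spleen, and Nqo1 and Srxn1 were higher in thymus. Gls2 and Gclc were lower in spleen. These calls are by limma with Benjamini-Hochberg adjusted p-values (all tested genes) at a threshold of 0.05, and the background differs between tissues. Of all genes tested, 40.0% were called in spleen (19.5% higher and 20.4% lower), 21.3% in thymus (9.77% higher and 11.6% lower) and 0.242% in liver. The share of members called was thus near the background in spleen (3 higher and 2 lower of 10). In thymus 3 members were higher and 0 lower of 9, beside 9.77% higher and 11.6% lower of all genes. Whether the shares differ was not tested. The median difference was -0.06 over the members and -0.03 over all genes in spleen, 0.20 and 0.01 in thymus, and -0.09 and -0.05 in liver. X-ray and untreated libraries did not overlap for 6 members in spleen, 5 in thymus and 1 in liver, against 53.3%, 40.6% and 27.4% of all genes tested.

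**Figure D1:**
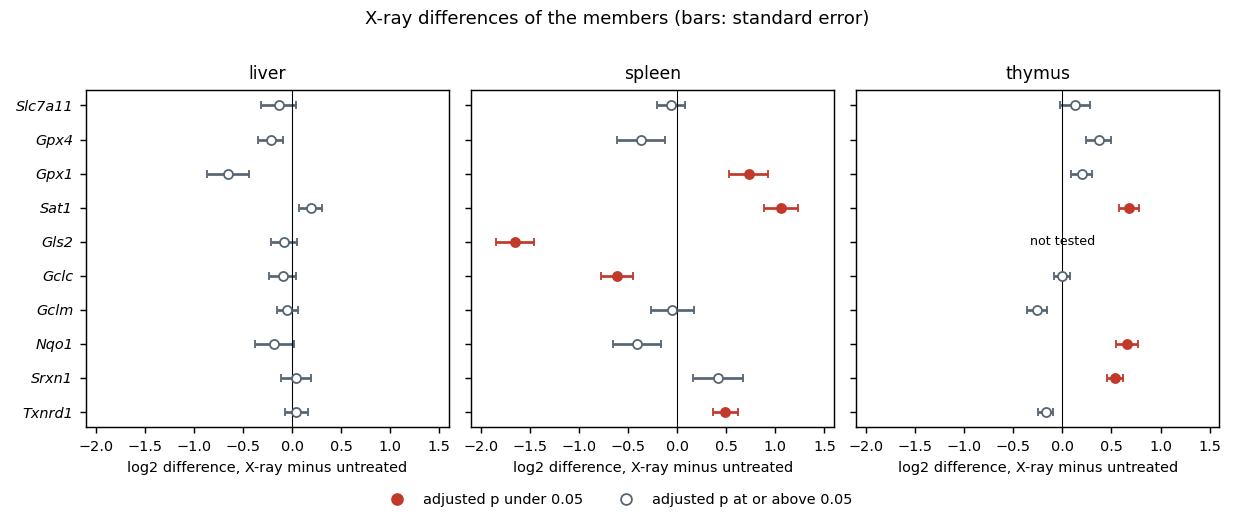
Difference in log2(signal + 0.5) between X-ray and untreated wt libraries (x axis) for each member (y axis) in liver, spleen and thymus, with standard errors as bars and filled red points where the adjusted p is under 0.05. Filled points are 5 in spleen (Gpx1, Sat1 and Txnrd1 to the right of 0, Gls2 and Gclc to the left), 3 in thymus (Sat1, Nqo1 and Srxn1, all to the right) and 0 in liver.

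Slc7a11 (chr3:50364936-50499087, minus strand) encodes the light chain of the cystine-glutamate exchanger that brings cystine into the cell. It was 37.0, 25.7 and 30.3 in X-ray spleens and 29.9, 31.3 and 35.2 in untreated spleens. The thymus gave 49.1, 70.8 and 52.1 after X-rays and 47.1, 62.9 and 47.1 without treatment, and the liver 7.003, 6.25 and 4.63 after X-rays and 5.96, 7.16 and 6.48 without. Both groups overlapped in all 3 tissues. The differences were -0.06 ± 0.14 in spleen (adjusted p = 0.745, limma), 0.12 ± 0.15 in thymus (adjusted p = 0.593) and -0.14 ± 0.18 in liver (adjusted p = 0.650), so no change of Slc7a11 RNA was detectable at 3 h.

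Gls2 (chr10:128194635-128210004, plus strand) encodes the liver-type glutaminase, which releases glutamate from glutamine. Its RNA in spleen was 0.847, 1.77 and 1.08 after X-rays and 4.42, 4.80 and 5.24 without treatment. Every X-ray spleen lay below every untreated one, and the difference of -1.65 ± 0.20 (adjusted p = 0.000513, limma) was the largest of any member in any X-ray comparison in the main fit. The size depended on the setting. With all libraries kept, it was -1.95 to -1.09 and passed in 11 of 11 settings, beside 1.01 to 1.09 for Sat1 in spleen. Alb, a hepatocyte RNA, was 25.7, 325 and 284 in X-ray spleens and 22.0, 15.1 and 29.5 in untreated ones. The lowest X-ray value of Alb lay within the untreated range, and the part of liver RNA in the spleen Gls2 values was not tested. In liver Gls2 was 617, 460 and 522 after X-rays and 540, 600 and 542 without, and the difference of -0.08 ± 0.13 did not pass (adjusted p = 0.713). The thymus values were 0.773, 0.608 and 2.98 in X-ray libraries and 0.774, 0.545 and 0.581 in untreated ones, below the minimum signal for a test. The thymus library at 2.98 also held the highest Alb signal of that tissue, 951, and the part of liver RNA in that value was not tested. Gls2 overlaps Spryd4 in the annotation and whether counting used strand is not stated in the labels. Spryd4 was 10.7, 13.8 and 11.5 in X-ray spleens and 12.0, 14.8 and 13.4 in untreated spleens, so the groups of that neighbour overlapped.

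Gclc (chr9:77754535-77794489, plus strand) and Gclm (chr3:122245487-122267215, plus strand) encode the catalytic and modifier subunits of glutamate-cysteine ligase, the rate-limiting enzyme of glutathione synthesis. Spleen Gclc was 148, 92.0 and 116 after X-rays and 178, 175 and 183 without treatment. All X-ray spleens were below all untreated ones, and Gclc fell by 0.61 ± 0.16 (adjusted p = 0.0176, limma). The call is a narrow one, since leaving out any untreated spleen library or X-ray replicate 3 raised the adjusted p to between 0.0539 and 0.0624. Gclm in the same libraries was 321, 164 and 230 after X-rays and 257, 208 and 251 without, with overlapping groups and a difference of -0.05 ± 0.22 (adjusted p = 0.875). The ratio of catalytic to modifier RNA, both per kilobase of exon, was 0.771, 0.937 and 0.840 in X-ray spleens and 1.16, 1.399 and 1.22 in untreated spleens, so the groups did not overlap on this measure, which is free of the scaling between libraries.

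The thymus showed the opposite order of that ratio. It was 4.69, 5.77 and 4.67 in X-ray thymus and 4.28, 4.21 and 4.06 in untreated thymus, again with no overlap. No test was run on this ratio in any tissue. Thymus Gclm was 11.1, 9.97 and 12.1 after X-rays, below all untreated values of 13.0, 13.8 and 13.0, but the difference of -0.26 ± 0.10 did not pass (adjusted p = 0.106, limma). Gclc in thymus was 31.0, 34.4 and 33.8 after X-rays and 33.3, 34.8 and 31.6 without, a difference of -0.01 ± 0.08 (adjusted p = 0.964). In liver, where the ratio was 2.92 to 3.82 after X-rays and 2.92 to 3.796 without, neither subunit passed the test. Liver Gclc was 324, 387 and 372 in X-ray libraries and 324, 429 and 412 in untreated ones (difference -0.10 ± 0.14, adjusted p = 0.677). Liver Gclm was 186, 195 and 163 in X-ray libraries and 186, 189 and 186 in untreated ones (difference -0.05 ± 0.11, adjusted p = 0.794).

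**Figure D2:**
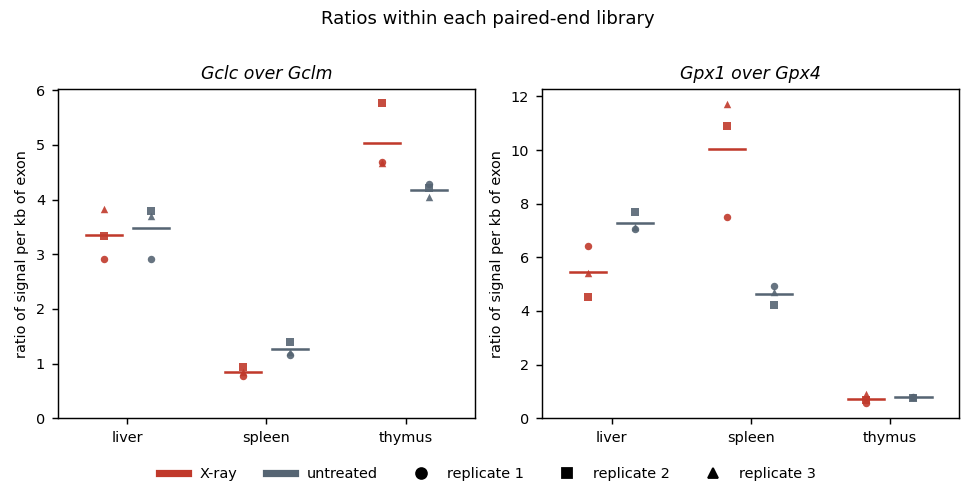
Ratio of signal per kilobase of exon within each paired-end library (y axis), X-ray left of untreated in each tissue, for Gclc over Gclm and Gpx1 over Gpx4; symbols mark replicates and lines mark means. X-ray spleens lie below untreated spleens for Gclc over Gclm (0.771 to 0.937 against 1.16 to 1.399) and above them for Gpx1 over Gpx4 (7.52 to 11.7 against 4.23 to 4.91).

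Gpx4 (chr10:80047166-80056439, plus strand) encodes the selenoenzyme that reduces lipid hydroperoxides inside membranes, the central brake on ferroptosis. Spleen Gpx4 was 370, 183 and 197 after X-rays and 317, 271 and 336 without treatment. Replicates 2 and 3 of the X-ray group lay below all untreated libraries and replicate 1 above them, which left a difference of -0.37 ± 0.25 (adjusted p = 0.254, limma). Without X-ray replicate 1 the difference was -0.69 and passed (adjusted p = 0.00151). The thymus gave 171, 137 and 122 in X-ray libraries and 125, 107 and 99.1 in untreated ones, with 1 overlapping value, and a difference of 0.37 ± 0.13 that missed the threshold (adjusted p = 0.0675). It passed under 3 alternatives: with the replicate number as a block (adjusted p = 0.00469), with DESeq2 (adjusted p = 0.0144) and without X-ray replicate 3 (adjusted p = 0.0427). In liver Gpx4 was 307, 225 and 246 after X-rays and 303, 298 and 297 without, a difference of -0.22 ± 0.13 (adjusted p = 0.322), which was -0.35 and passed without X-ray replicate 1 (adjusted p = 0.0429). RefSeq lists pseudogenes named Gpx4-ps1 and Gpx4-ps2, and how reads shared with such copies were counted is not stated in the labels.

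Gpx1 (chr9:108339080-108340342, plus strand) encodes the abundant cytosolic glutathione peroxidase, which removes hydrogen peroxide. It was 2326, 1668 and 1925 in X-ray spleens and 1301, 960 and 1320 in untreated spleens. No values overlapped, and the increase of 0.73 ± 0.20 passed (adjusted p = 0.0204, limma), although it was lost without untreated replicate 2 (adjusted p = 0.0917) or X-ray replicate 3 (adjusted p = 0.0537), with no filter (0.0560) and with Xist as a covariate (0.0512). Xist, which marks female tissue, was 383, 361 and 0.237 in X-ray spleens and 443, 0.0623 and 0.190 in untreated spleens. In bulk tissue more RNA per cell and more cells of a type cannot be told apart. Erythroid cells are rich in Gpx1, and their 7 markers, none of which passed, summed to 10599 to 18575 in X-ray spleens and 10024 to 12729 in untreated ones, while 6 of 6 macrophage markers, 5 of 7 granulocyte markers and 4 of 5 megakaryocyte markers tested were higher after X-rays. Hepatocyte markers, with 6 of 6 tested higher and a median difference of 2.27, summed to 40.0 to 481 in X-ray spleens and 23.0 to 45.3 in untreated ones. The part of these cell types in the Gpx1 result was not tested. Liver Gpx1 ran the other way, at 1648, 854 and 1114 after X-rays and 1789, 1914 and 1772 without, with no overlap, but at -0.65 ± 0.22 it did not pass (adjusted p = 0.192). Without liver X-ray replicate 1 the liver difference was -0.90 (adjusted p = 0.00963). The erythroid sum in liver was 120 to 300 after X-rays and 292 to 330 without, with a median marker difference of -0.69 and 0 of 7 called, and its part in the liver value was not tested. Thymus Gpx1 was 78.9, 76.0 and 91.6 after X-rays and 82.1, 66.3 and 66.5 without (difference 0.20 ± 0.11, adjusted p = 0.208).

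Per kilobase of exon, Gpx1 outweighed Gpx4 by 7.52, 10.9 and 11.7 in X-ray spleens and by 4.91, 4.23 and 4.70 in untreated spleens. The liver gave the reverse order, with ratios of 6.42, 4.53 and 5.42 after X-rays and 7.06, 7.69 and 7.13 without. In paired-end thymus Gpx1 was below Gpx4 per kilobase, with overlapping ratios of 0.551, 0.662 and 0.897 after X-rays and 0.788, 0.738 and 0.803 without. In the single-end thymus libraries Gpx1 was above Gpx4, with ratios of 2.42 to 4.05 in wt and 2.27 to 9.04 in d24. Why the tables differ was not tested. In the paired-end table, X-ray ratios thus lay above untreated ratios in spleen and below them in liver, with no overlap in either organ. The ratios were not tested, and Gpx4 in spleen and both genes in liver did not pass alone.

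Sat1 (chrX:155213126-155216449, minus strand) encodes spermidine/spermine N1-acetyltransferase, the first enzyme of polyamine breakdown and a p53 target in human cells. It was 150, 137 and 161 in X-ray spleens and 88.0, 54.5 and 75.6 in untreated spleens, an increase of 1.06 ± 0.17 (adjusted p = 0.00193, limma). The thymus values were 116, 96.8 and 108 after X-rays and 74.4, 59.5 and 66.0 without, an increase of 0.68 ± 0.10 (adjusted p = 0.0022). X-ray and untreated libraries were apart in both organs, and Sat1 was called in both under every alternative run and with every library left out in turn. Liver Sat1 was 78.1, 96.2 and 85.2 after X-rays and 79.1, 75.5 and 72.3 without, with overlap and a difference of 0.19 ± 0.11 (adjusted p = 0.332).

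Nqo1 (chr8:107388225-107403205, minus strand) encodes a quinone reductase and is a textbook Nrf2 target. In thymus it was 17.3, 19.98 and 21.9 after X-rays and 11.9, 13.3 and 11.6 without treatment, an increase of 0.66 ± 0.11 with no overlap (adjusted p = 0.00384, limma). The thymus call was lost with all libraries in 1 fit (adjusted p = 0.0564, limma). The spleen gave 49.7, 22.9 and 28.6 after X-rays and 48.0, 41.3 and 38.8 without. As for Gpx4, X-ray replicate 1 lay above the untreated libraries and the others below, and the difference of -0.41 ± 0.24 (adjusted p = 0.207) was -0.72 without that library (adjusted p = 0.00164). Liver Nqo1 was 34.5, 25.0 and 19.4 after X-rays and 32.0, 28.8 and 26.7 without (difference -0.18 ± 0.20, adjusted p = 0.583).

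Srxn1 (chr2:152105524-152111376, plus strand) encodes sulfiredoxin, which restores over-oxidised peroxiredoxins, and its promoter window above holds the response element core. Thymus Srxn1 was 40.4, 36.7 and 35.2 after X-rays and 25.7, 25.9 and 25.4 without, an increase of 0.53 ± 0.08 with no overlap (adjusted p = 0.00253, limma). With all libraries in 1 fit the thymus call was lost (adjusted p = 0.0907, limma). Spleen values were 42.1, 20.2 and 19.6 after X-rays and 19.3, 19.5 and 18.4 without. The groups did not overlap, but the difference of 0.41 ± 0.25 (adjusted p = 0.216) rested on X-ray replicate 1 and was 0.06 without it (adjusted p = 0.607). In liver Srxn1 was 96.1, 66.0 and 72.3 after X-rays and 69.2, 73.3 and 82.7 without, a difference of 0.04 ± 0.16 (adjusted p = 0.884). Spleen X-ray replicate 1 was thus the highest of its group for Srxn1, Gpx4, Nqo1, Gpx1, Gclc, Gclm and Slc7a11, and the cause was not tested.

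Txnrd1 (chr10:82833951-82897724, plus strand) encodes the cytosolic thioredoxin reductase. Spleen Txnrd1 was 102, 117 and 93.7 after X-rays and 65.6, 84.1 and 72.4 without treatment, an increase of 0.49 ± 0.13 with no overlap (adjusted p = 0.0178, limma). That call was lost without untreated replicate 1 (adjusted p = 0.0810) or 3 (adjusted p = 0.0622). In thymus all X-ray values, 57.4, 63.4 and 58.5, lay below the untreated 65.0, 70.3 and 66.3, but the difference of -0.17 ± 0.08 did not pass (adjusted p = 0.137). Liver Txnrd1 was 188, 177 and 161 after X-rays and 164, 157 and 190 without (difference 0.04 ± 0.12, adjusted p = 0.833). Txnrd1 overlaps Eid3 and Gm38560 and Gclm overlaps Gm46822 and Gm6061 in the annotation, and reads of such pairs could not be told apart here.

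**Figure D3:**
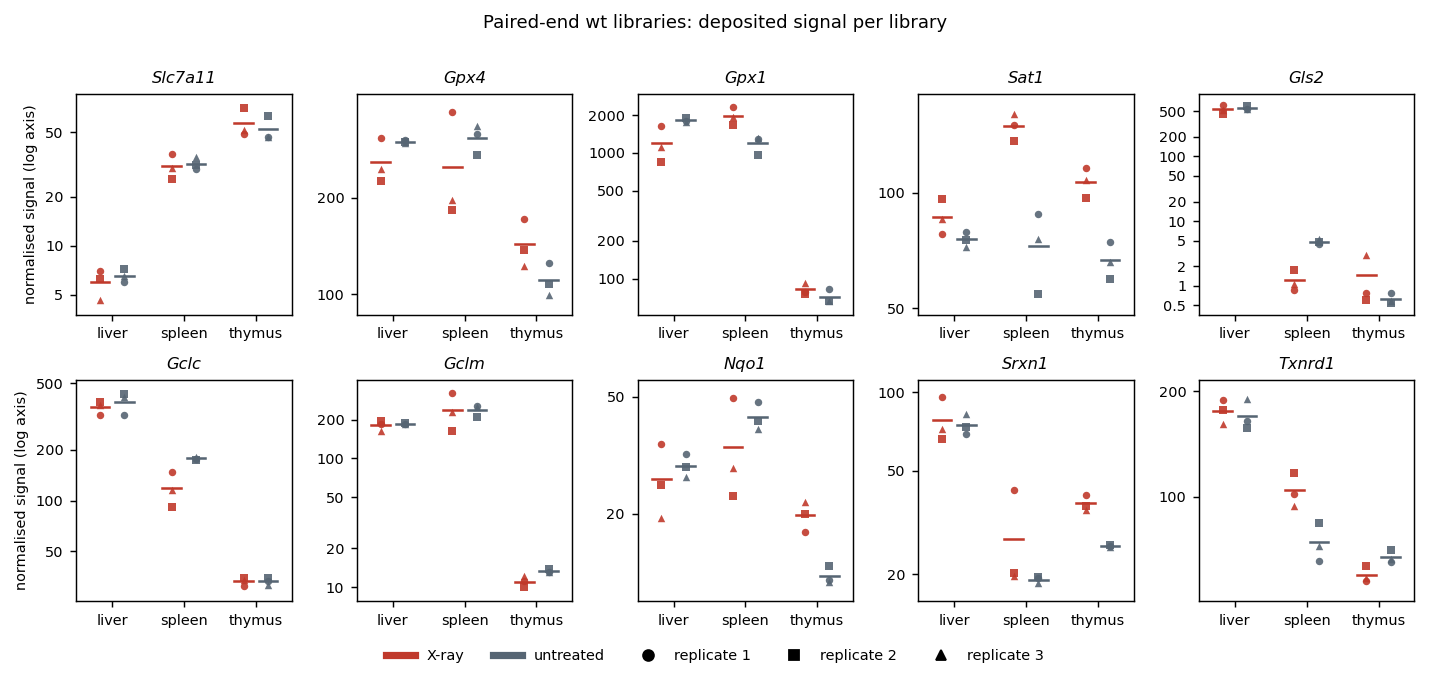
Deposited signal of each member in each of the 18 paired-end wt libraries (y axis, log scale, own range for each gene), X-ray left of untreated in each tissue; symbols mark replicates and lines mark means. Sat1 is higher in X-ray than in untreated libraries in spleen (137 to 161 against 54.5 to 88.0) and thymus (96.8 to 116 against 59.5 to 74.4), Gls2 is lower in X-ray spleen (0.847 to 1.77 against 4.42 to 5.24), and X-ray spleen replicate 1 sits far above the other X-ray spleens for Gpx4 and Srxn1.

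The size of the X-ray difference depended on the tissue for 6 of the 10 members, against 30.5% of all genes tested (limma F test of the interaction over 18 libraries, Benjamini-Hochberg adjustment). These were Gls2 (adjusted p = 0.003), Gpx1 (adjusted p = 0.00453), Txnrd1 (adjusted p = 0.0109), Sat1 (adjusted p = 0.0119), Nqo1 (adjusted p = 0.0348) and Gclc (adjusted p = 0.0455). For Gpx1 the difference was 0.73 in spleen, 0.20 in thymus and -0.65 in liver. For Txnrd1 it was 0.49 in spleen and -0.17 in thymus, and for Nqo1 0.66 in thymus and -0.41 in spleen. Within a single tissue, spleen Gpx1, spleen Txnrd1 and thymus Nqo1 passed among these values. Slc7a11 (adjusted p = 0.640), Gclm (0.673), Srxn1 (0.346) and Gpx4 (0.107) did not pass. The Gclc interaction was called under only 5 of 12 settings, the main fit among them. It was lost with edgeR (adjusted p = 0.0887), DESeq2 (0.0602), no trend (0.0594), median-ratio scaling (0.0588), the replicate block (0.0583), no filter (0.0520) and Xist as a covariate (0.0510), and without several single libraries. The Nqo1 interaction was lost with edgeR (adjusted p = 0.0532) and without several single libraries. That of Gpx4 was gained with the replicate block (adjusted p = 0.0377) and under equal totals (0.0187), and that of Txnrd1 was lost when libraries were scaled to equal totals (adjusted p = 0.147).

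A wider set of 165 genes in 13 lists of the same pathways gave the setting. After X-rays 39 rose and 25 fell of 147 tested in spleen, 27 rose and 15 fell of 153 in thymus, and 0 of 153 passed in liver, that is 43.5% and 27.5% called in spleen and thymus against the 40.0% and 21.3% of all genes. Among other Nrf2 targets, 6 rose and 1 fell of 15 in spleen, and 6 rose and 0 fell of 15 in thymus. Hmox1, which degrades heme, averaged 648 ± 46.5 in X-ray and 219 ± 45.9 in untreated spleens (log2 difference 1.58 ± 0.17, adjusted p = 0.000349, limma), and 45.6 ± 12.1 in X-ray and 15.1 ± 1.16 in untreated thymus (1.54 ± 0.16, adjusted p = 0.000292). Ephx1, an epoxide hydrolase, rose by 1.01 ± 0.14 in spleen and 1.14 ± 0.12 in thymus, and Osgin1, an oxidative stress response gene, by 1.45 ± 0.17 in spleen and 1.11 ± 0.30 in thymus.

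Genes of glutathione synthesis and turnover rose in 5 of 12 tested in spleen and 3 of 13 in thymus, and 0 fell in either. Gss, the second enzyme of glutathione synthesis, averaged 21.7 ± 1.54 in X-ray and 12.8 ± 1.03 in untreated thymus (0.74 ± 0.10, adjusted p = 0.00139, limma). Abcc1, an exporter of glutathione conjugates, averaged 40.2 ± 5.65 in X-ray and 20.4 ± 3.51 in untreated spleens (0.96 ± 0.15, adjusted p = 0.00162). Of the peroxidases and S-transferases, 5 rose and 5 fell of 20 in spleen: Gpx3, the secreted peroxidase, rose by 1.69 ± 0.17, while Gstm5 fell by 1.37 ± 0.18 and Gsta4 by 1.30 ± 0.14. In the thioredoxin and peroxiredoxin list 6 rose and 4 fell of 16 in spleen, and 4 rose and 0 fell of 16 in thymus. Prdx3, Prdx4 and Prdx6 fell in spleen by 0.62 ± 0.15, 0.79 ± 0.14 and 0.80 ± 0.15, and Txnip, the inhibitor of thioredoxin, rose in thymus by 1.05 ± 0.12.

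Of the polyamine enzymes beside Sat1, 1 rose and 4 fell of 9 tested in thymus, with a list median of 0.0037. Srm, spermidine synthase, averaged 13.1 ± 0.403 in X-ray and 27.7 ± 0.152 in untreated thymus (-1.05 ± 0.08, adjusted p = 4.59e-05, limma), Amd1 fell by 0.75 ± 0.08 and Sms by 0.51 ± 0.09, and Smox, spermine oxidase, rose by 0.55 ± 0.11. Amd1, which makes the aminopropyl donor of polyamine synthesis, was the 1 gene of 9 called in spleen, at 92.2 ± 11.3 in X-ray and 199 ± 12.5 in untreated libraries (-1.11 ± 0.12). Glul, which makes glutamine, rose by 0.60 ± 0.12 in spleen and by 0.81 ± 0.07 in thymus. Lists of ferroptosis lipid enzymes and of suppressors outside glutathione moved in both directions in spleen (3 rose and 1 fell of 10, and 1 rose and 4 fell of 14). Acsl4, which loads polyunsaturated fatty acids for peroxidation, fell by 0.49 ± 0.10 there, and Tfrc, the transferrin receptor, fell by 0.92 ± 0.13 in thymus.

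Beside the thymus results stands a shift of other markers: 4 of 6 thymic epithelial markers, 5 of 6 granulocyte markers and 3 of 5 macrophage markers tested were higher after X-rays. Thymic epithelial markers summed to 1239 to 1510 in X-ray and 853 to 894 in untreated thymus, granulocyte markers to 44.4 to 101 in X-ray and 26.1 to 43.6 in untreated thymus, and thymocyte markers, with 1 of 7 lower, to 4492 to 5621 in X-ray and 4261 to 4924 in untreated thymus. Their part in the rise of Nqo1, Srxn1 and Sat1 was not tested. In spleen the macrophage sum was 639 to 1049 after X-rays and 392.2 to 513 without, and its part in the Sat1 and Hmox1 results was not tested.

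Without treatment, most members differed in level between tissues, Gls2 over the widest range and Sat1 in no pair of tissues as deposited. Per kilobase of exon, Gpx1 was the most abundant member in spleen at 828 ± 141 and in liver at 1267 ± 54.0, whereas in thymus Gpx4 at 64.0 ± 7.57 was above Gpx1 at 49.7 ± 6.30 (SD, n = 3 each). The single-end thymus libraries gave the other order for Gpx1 and Gpx4, as shown above. The least abundant was Slc7a11 in liver at 0.469 ± 0.0434, and Gls2 in spleen at 1.39 ± 0.118 and in thymus at 0.182 ± 0.0354. Gls2 followed Gpx1 and Gpx4 in liver at 161 ± 9.76, close to Gpx4 at 174 ± 1.83, ahead of Gclc at 103 ± 14.9. Gclm in liver at 29.7 ± 0.265, Sat1 at 27.3 ± 1.24, Srxn1 at 26.6 ± 2.46 and Txnrd1 at 24.05 ± 2.43 followed, and the last 3 of these did not differ beyond their spread. In spleen Gpx4 at 179 ± 19.2 came next after Gpx1, then Gclc at 47.4 ± 1.10, Gclm at 37.9 ± 4.16, and Nqo1 and Sat1 within their spread of each other at 27.5 ± 3.05 and 26.2 ± 6.10. Txnrd1 at 10.4 ± 1.32, Srxn1 at 6.76 ± 0.201 and Slc7a11 at 2.31 ± 0.199 were lower. In thymus Sat1 followed both peroxidases at 24.03 ± 2.70, and Txnrd1, Srxn1 and Gclc lay close together at 9.48 ± 0.390, 9.10 ± 0.0919 and 8.82 ± 0.424, ahead of Nqo1 at 7.90 ± 0.557, Slc7a11 at 3.76 ± 0.654 and Gclm at 2.11 ± 0.0726.

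**Figure D4:**
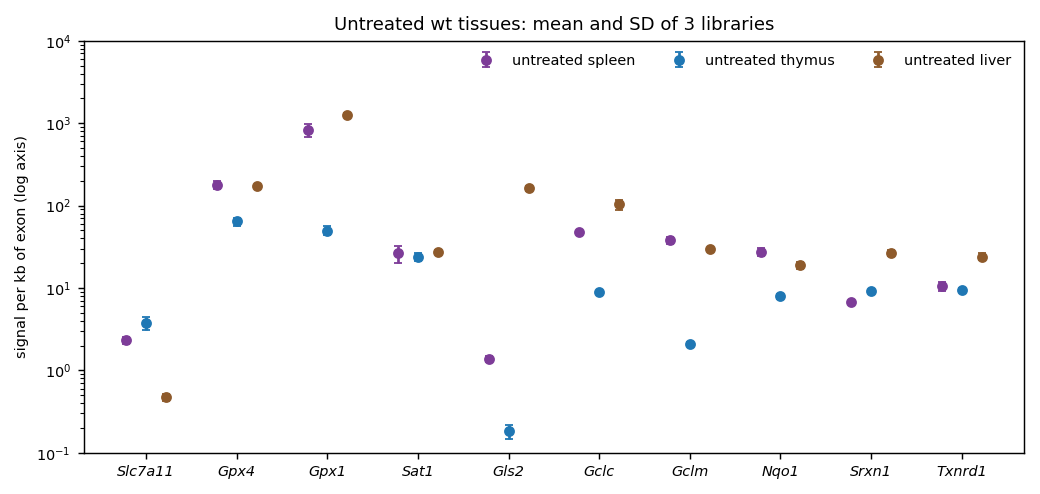
Mean signal per kilobase of exon with SD of 3 untreated wt libraries (y axis, log scale) for each member in spleen, thymus and liver. Gls2 spans the widest range (1.39 in spleen, 0.182 in thymus and 161 in liver), while Sat1 is nearly level (26.2, 24.03 and 27.3).

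The tissue differences were tested within the untreated paired-end libraries, where 85.9% of all genes differed between spleen and liver (43.0% higher and 42.9% lower), 86.4% between thymus and liver (42.0% and 44.4%) and 72.6% between spleen and thymus (36.8% and 35.8%). The members called were 8 (3 higher and 5 lower), 9 (1 higher and 8 lower) and 8 (6 higher and 2 lower) of 10. These directions depend on the deposited scaling, because column totals differed between tissues, lowest in thymus and highest in liver. With every column set to the same total, the median of all genes shifted by 0.87 for spleen against liver, 1.45 for thymus against liver and -0.55 for spleen against thymus. The calls over all genes then split into 9751 higher and 3602 lower, 11122 higher and 2873 lower, and 2840 higher and 9426 lower. Slc7a11 and Gls2 kept their directions under both scalings. As deposited, Slc7a11 was higher in spleen than in liver by 2.21 ± 0.12 (adjusted p = 4.44e-09, limma) and in thymus than in liver by 2.90 ± 0.12 (adjusted p = 3.27e-10), and lower in spleen than in thymus, at -0.69 ± 0.12. Gls2 was lower in spleen than in liver, at -6.72 ± 0.11, and in thymus than in liver, at -8.96 ± 0.11, and higher in spleen than in thymus by 2.23 ± 0.11.

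Both ligase subunits and Gpx1 were far lower in thymus than in liver, with log2 differences of -3.52 ± 0.10 for Gclc, -3.77 ± 0.08 for Gclm and -4.67 ± 0.13 for Gpx1, and also lower than in spleen, where Gclc was higher by 2.41 ± 0.10, Gclm by 4.11 ± 0.08 and Gpx1 by 4.04 ± 0.13. The differences for these 3 genes kept their sign under equal totals, except that Gpx1, lower in spleen than in liver as deposited (-0.63 ± 0.13), was then higher by 0.42. Gpx4, Nqo1, Srxn1 and Txnrd1 were lower in thymus than in liver as deposited (-1.44 ± 0.10, -1.21 ± 0.10, -1.53 ± 0.08 and -1.33 ± 0.10), and all turned positive under equal totals (0.23, 0.42, 0.13 and 0.34). Between spleen and liver, Gclc, Srxn1 and Txnrd1 were lower in spleen (-1.11 ± 0.10, -1.95 ± 0.08 and -1.20 ± 0.10) as deposited, and Gclm and Nqo1 higher by 0.35 ± 0.08 and 0.54 ± 0.10. Under equal totals the calls of Gclc (-0.06, adjusted p = 0.572) and Txnrd1 (-0.16, adjusted p = 0.268) were lost and Gpx4, at 0.03 ± 0.10 as deposited (adjusted p = 0.749), was called at 1.08 (adjusted p = 1.63e-07). Between spleen and thymus, Gpx4 and Nqo1 were higher in spleen by 1.48 ± 0.10 and 1.76 ± 0.10 and Srxn1 lower (-0.42 ± 0.08). Sat1 passed in none of the 3 tissue comparisons as deposited, at -0.08 ± 0.15 for spleen against liver (adjusted p = 0.604, limma), -0.19 ± 0.15 for thymus against liver (0.249) and 0.10 ± 0.15 for spleen against thymus (0.543), and under equal totals these became 0.96, 1.48 and -0.52. Txnrd1 between spleen and thymus was 0.13 ± 0.10 as deposited (adjusted p = 0.252) and -0.49 under equal totals.

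As a description over the 18 paired-end libraries, which share the tissue contrast and are not independent points of the treatment, the gene most like each member among 13828 was named by Pearson r of log2 signal. Gclm followed Chac2, an enzyme that breaks down glutathione, at 0.996, Gls2 followed Pxmp2, a peroxisomal membrane protein, at 0.995, and Gpx1 followed Slc25a39, the carrier of glutathione into mitochondria, at 0.992. Gclc followed Gpr155 at 0.993, Slc7a11 followed Fam78a at 0.990, Txnrd1 followed Ears2 at 0.988, Srxn1 followed Eola1 at 0.959, Nqo1 followed Wipi2 at 0.948, Gpx4 followed Klhdc2 at 0.947 and Sat1 followed Lilrb4a at 0.910. Within the set Gpx1 and Gclm were the closest pair, at 0.981.

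Between the single-end libraries, 1 of the 10 members passed in spleen and 0 in liver and in thymus. Srxn1 was higher in d24 than in wt spleen. Of all genes tested, limma called 2.28% in spleen (1.04% higher and 1.24% lower), 0.526% in liver and 0.00724% in thymus. Groups did not overlap for 3 members in spleen, 3 in liver and 1 in thymus, against 19.3%, 19.1% and 16.6% of all genes. At an unadjusted p under 0.05 (limma) there were 2 members in spleen, 5 in liver and 1 in thymus, against 13.3%, 13.4% and 9.8% of all genes tested. DESeq2 on the recovered reads called 2 members in spleen, 0 in liver and 1 in thymus, and edgeR 1, 0 and 0. The shares of all genes called by these tools are not given here.

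Srxn1 was 57.9, 115 and 91.4 in d24 spleens and 28.8, 16.5 and 32.4 in wt spleens, a difference of 1.75 ± 0.35 with no overlap (adjusted p = 0.0224, limma). The call was lost without d24 replicate 2 (adjusted p = 0.118), d24 replicate 3 (0.0989) or wt replicate 2 (0.0629). Txnrd1 in the same libraries was 131, 152 and 128 in d24 and 87.8, 67.5 and 52.9 in wt, also with no overlap, and its difference of 1.00 ± 0.27 missed the threshold (adjusted p = 0.0841) but passed with DESeq2 (0.0124). Both genes have the response element core in the promoter windows printed above, as does Gclm, which was 191, 273 and 184 in d24 and 303, 244 and 252 in wt spleens (-0.32 ± 0.26, adjusted p = 0.680). Beside these values, Cdkn1a was at least 319 in every d24 spleen and at most 9.37 in every wt spleen, and the labels carry an X-ray characteristic for the d24 spleens and a control characteristic for the wt spleens. All 7 granulocyte and all 5 megakaryocyte markers were lower in d24 spleen, with granulocyte sums of 105 to 900 in d24 and 2729 to 8289 in wt. B cell markers, with 1 of 6 called lower, summed to 2730, 460 and 1132 in d24 and 1121 to 1911 in wt. The part of these cell types in the Srxn1 result was not tested.

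The other spleen members overlapped between genotypes except Slc7a11, at 10.8, 8.11 and 9.25 in d24 and 12.6, 12.6 and 11.9 in wt (-0.39 ± 0.35, adjusted p = 0.714, limma). Gclc was 150 to 193 in d24 and 142 to 250 in wt (-0.13 ± 0.28), Nqo1 28.0 to 50.2 in d24 and 30.6 to 43.9 in wt (-0.02 ± 0.31), and Gls2 0.242 to 2.404 in d24 and 1.92 to 4.02 in wt (-0.89 ± 0.66). Wt spleen replicate 3 was far above its group for Gpx4 (224 against 81.5 and 75.3), Gpx1 (4720 against 1739 and 1704) and Sat1 (174 against 49.1 and 62.5). With it the differences were -0.63 ± 0.40 for Gpx4, -0.35 ± 0.44 for Gpx1 and -0.20 ± 0.41 for Sat1, and without it -0.13, 0.14 and 0.35, with no call either way.

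In liver, Gpx1 was 846, 528 and 648 in d24 and 1082, 1133 and 1360 in wt (-0.84 ± 0.25, adjusted p = 0.190, limma). Gclm was 103, 105 and 146 in d24 and 187, 217 and 231 in wt (-0.85 ± 0.24, adjusted p = 0.163). Srxn1 was 113, 89.1 and 55.1 in d24 and 46.8, 43.0 and 46.1 in wt (0.85 ± 0.29, adjusted p = 0.253). In each of these 3 genes the groups did not overlap, yet none passed. Gclc was 277, 190 and 532 in d24 and 534, 471 and 579 in wt (-0.79 ± 0.34, adjusted p = 0.361), and passed only without d24 replicate 3, at -1.20 (adjusted p = 0.0470). Gls2 was 819, 453 and 664 in d24 and 251, 237 and 512 in wt (1.00 ± 0.34, adjusted p = 0.241), with an overlap of 1 library. Cdkn1a set the same libraries apart in both groups: d24 replicate 3 was the lowest of d24 at 108 and wt replicate 3 the highest of wt at 147. The other liver members overlapped. Slc7a11 was 6.42, 2.24 and 2.46 in d24 and 5.78, 5.88 and 4.22 in wt (-0.58 ± 0.51), and Gpx4 was 105, 51.7 and 42.4 in d24 and 54.0, 63.5 and 88.6 in wt (-0.13 ± 0.36). Sat1 was 129, 112 and 63.6 in d24 and 59.8, 85.5 and 170 in wt (0.02 ± 0.40), Nqo1 18.9, 11.4 and 16.8 in d24 and 10.1, 12.3 and 6.33 in wt (0.70 ± 0.38), and Txnrd1 134, 164 and 148 in d24 and 139, 98.7 and 136 in wt (0.27 ± 0.24). Granulocyte markers, 6 of 7 lower in d24 liver, summed to 13.3 to 71.2 in d24 and 393 to 890 in wt.

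The d24 thymus held 1 library apart from the rest. Replicate 3 had an erythroid sum of 1113 and a hepatocyte sum of 1333, and with them Nqo1 at 106, Gpx1 at 316, Sat1 at 130 and Gclm at 32.9. Nqo1 was 29.7, 36.7 and 106 in d24 and 7.85, 13.8 and 23.1 in wt thymus, with no overlap and a difference of 1.80 ± 0.48 (adjusted p = 0.301, limma), or 1.25 without replicate 3 (adjusted p = 0.159). DESeq2 called it (adjusted p = 0.00797). Gpx1 (0.47 ± 0.47) and Gclm (0.28 ± 0.34) changed sign without that library, to -0.22 and -0.06, and Txnrd1 (-0.18 ± 0.24) did so too, to 0.11. Sat1 was 0.82 ± 0.39 with it and 0.28 without. Srxn1 was 40.8, 28.2 and 26.0 in d24 and 14.6, 26.9 and 19.7 in wt (0.64 ± 0.29, adjusted p = 0.509). Gls2 was 0.751, 1.56 and 1.66 in d24 and 1.03, 0 and 0.0295 in wt thymus (1.26 ± 0.73, adjusted p = 0.607); the value of 0 is 0 reads, which allows a signal of up to 0.0926, for counting error only. Slc7a11 was 40.8, 65.4 and 68.3 in d24 and 86.8, 51.7 and 68.4 in wt (-0.25 ± 0.25), Gpx4 38.2, 36.5 and 41.9 in d24 and 33.3, 31.8 and 45.7 in wt (0.09 ± 0.21), and Gclc 44.1, 49.98 and 55.1 in d24 and 47.1, 35.4 and 52.1 in wt (0.16 ± 0.21), all with overlapping groups.

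**Figure D5:**
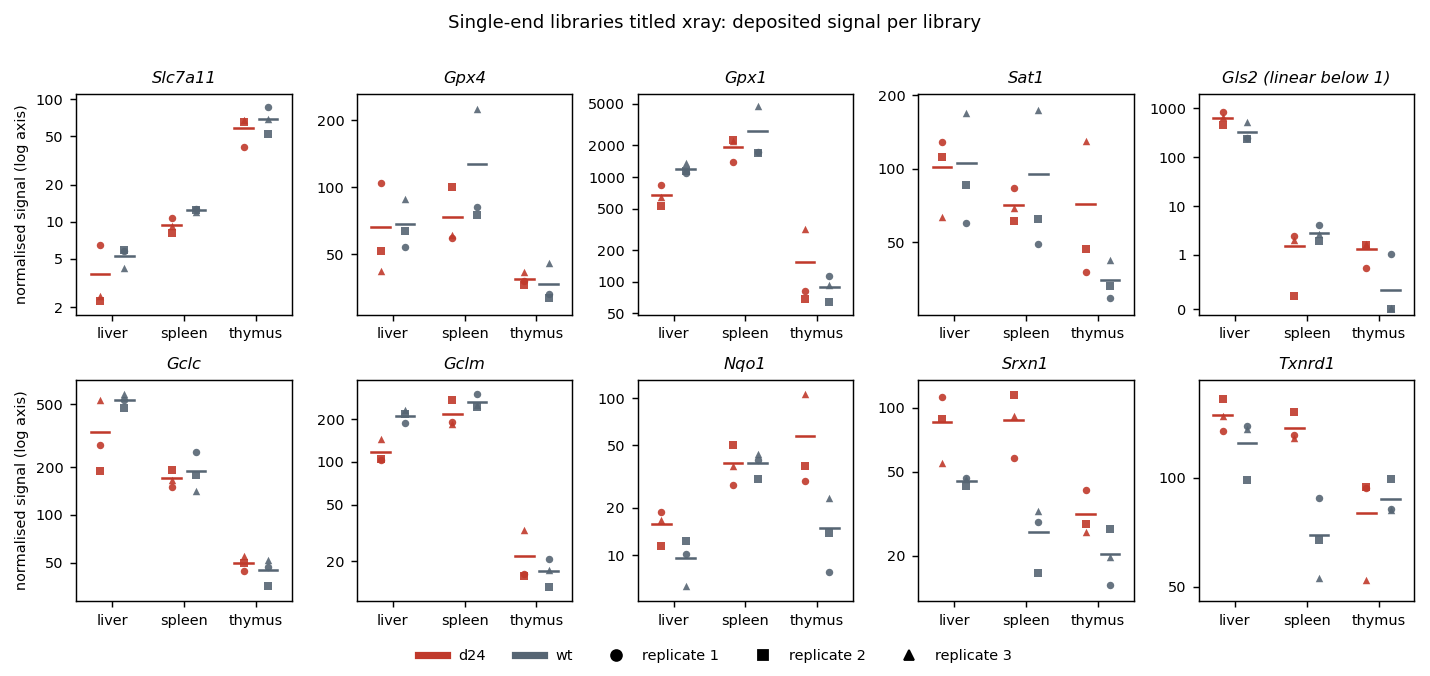
Deposited signal of each member in each of the 18 single-end libraries (y axis, log scale, linear below 1 for Gls2), d24 left of wt in each tissue; symbols mark replicates and lines mark means. Srxn1 is higher in d24 than in wt spleen (57.9 to 115 against 16.5 to 32.4), and d24 thymus replicate 3 sits apart for Nqo1, Gpx1, Sat1 and Gclm.

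The d24 difference depended on the tissue for 0 of 10 members (limma F test, lowest adjusted p 0.225, for Txnrd1), against 0.988% of all genes tested. EdgeR and DESeq2 called 0 as well. By the F test 4 members had an unadjusted p under 0.05, a count for which the share of all genes is not given here. Of the 165 pathway genes, 3 were higher and 5 lower of 148 tested in d24 spleen, 2 higher and 3 lower of 157 in d24 liver, and 0 of 148 passed in d24 thymus. That is 5.41% in spleen and 3.18% in liver, against 2.28% and 0.526% of all genes, and 0.00724% of all genes in thymus. Whether these shares differ was not tested. Gpx3 averaged 263 ± 218 in d24 and 17.1 ± 13.7 in wt spleens (3.84 ± 0.58, adjusted p = 0.00414, limma), and Gch1, which makes the radical-trapping cofactor tetrahydrobiopterin, 17.5 ± 1.68 in d24 and 77.7 ± 9.92 in wt spleens (-2.12 ± 0.27, adjusted p = 0.00162). In liver Cth, the enzyme that makes cysteine from cystathionine, averaged 1329 ± 532 in d24 and 241 ± 112 in wt (2.46 ± 0.40, adjusted p = 0.0302), and Gsta3 357 ± 97.8 in d24 and 1120.5 ± 207 in wt (-1.67 ± 0.27, adjusted p = 0.0312).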

How the data were processed

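RNA of 36 mouse tissue libraries was prepared as stranded total RNA, per the labels' protocols. The deposited values are a normalised signal per gene, made by the authors in 1 table for 18 paired-end and 1 for 18 single-end libraries, with edgeR and mm10 named per the submitters' processing notes. Which aligner, counter and annotation were used is not given in the sources used here. In every library 100% of the deposited signal values lay within 0.01 of a whole multiple of 1 read, so whole reads were recovered, and 1 read was worth 0.00991 to 0.0377 in paired-end and 0.0171 to 0.0828 in single-end libraries. Column totals differed between tissues, so the scaling is more than a division by depth. Another 18 columns that match no sample were not used. Gene numbers were matched to RefSeq symbols for 96.7% of paired-end and 97.1% of single-end genes, and promoter sequences are RefSeq's.

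Groups were taken from the titles. Each comparison was fitted with limma 3.58.1 in R 4.3.3 (trended eBayes, log2(signal + 0.5), 3 against 3 libraries, genes with a signal of 1 or more in 3 or more libraries) and adjusted by Benjamini-Hochberg over all genes tested, separately for each table. The interaction used 18 libraries and the untreated tissue comparisons 9. The count tests of edgeR 4.0.16 and DESeq2 1.42.0 on recovered reads were alternatives, beside other pseudocounts (0.1 and 2), filters, scalings, a replicate block, Xist as a covariate, 1 fit of all libraries and each library left out. The scaling to equal totals was chosen after seeing the data. The fit was tested on simulated data. Same-numbered X-ray and untreated spleens deviated together (correlations of 0.18, 0.24 and 0.19), and in thymus the correlations were 0.06, 0.48 and 0.25. In no other comparison were all 3 correlations positive. No pair of replicates agreed within counting noise. Named pathway genes are at most the 3 largest called, non-overlapping changes per list and direction. The members and lists were chosen with earlier results of these data known.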

Additional observations from a re-analysis of the deposited data

Results flagged for a closer look

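The X-ray difference of 6 members differed between liver, spleen and thymus by the limma interaction test over 18 libraries. The F values were 14.8 for Gls2, 13.1 for Gpx1, 9.85 for Txnrd1, 9.56 for Sat1, 6.36 for Nqo1 and 5.66 for Gclc. With the replicate number as a block, Gclc was lost (adjusted p = 0.0583) and Gpx4 gained (adjusted p = 0.0377). For Gls2 the differences were -1.65 in spleen and -0.08 in liver, for Gpx1 0.73 in spleen and -0.65 in liver, and for Sat1 1.06 in spleen, 0.68 in thymus and 0.19 in liver. Of all genes tested, 30.5% passed the same test.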

How the results depend on the processing

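With all libraries in 1 fit the members called were 1 in X-ray liver, 1 in X-ray thymus, where Nqo1 and Srxn1 were lost, and 2 in d24 spleen. DESeq2 called 2 in d24 spleen and 1 in d24 thymus, and 0 were called in d24 spleen with no filter or no trend. Leaving out 1 library at a time gave 0 to 2 members in X-ray liver, 3 to 7 in X-ray spleen, 3 to 4 in X-ray thymus, 0 to 1 in d24 liver, 0 to 1 in d24 spleen and 4 to 8 for the X-ray interaction. The share of all genes called under each setting is not given here. Counts over all genes moved as well, as listed below, so these member counts are no result about the members alone. The replicate block gave 5 members in X-ray spleen and 4 in X-ray thymus, where Gpx4 was added, and 0, 0, 1 and 0 in X-ray liver, d24 liver, d24 spleen and d24 thymus; with pairing in spleen it changed no member's call there. In the X-ray interaction the block gave 6 members, with Gclc lost (adjusted p = 0.0583) and Gpx4 gained (0.0377). With equal column totals, 9 tissue differences changed sign: Gpx1 0.42 and Sat1 0.96 for spleen against liver, Gpx4 0.23, Sat1 1.48, Nqo1 0.42, Srxn1 0.13 and Txnrd1 0.34 for thymus against liver, and Sat1 -0.52 and Txnrd1 -0.49 for spleen against thymus. Of the member values under the alternatives other than equal totals, 2091 kept their call or lack of one, 49 of which changed sign while called in neither fit, 16 gained a call and 49 lost one. The count over all genes moved by over 1.5 times in X-ray liver (32, and 9 to 2836 under alternatives), X-ray spleen (5351, as low as 3136), X-ray thymus (2945, as low as 1576), d24 liver (72, 4 to 531), d24 spleen (309, 45 to 594), d24 thymus (1, 0 to 266) and the d24 interaction (159, 47 to 504). The causes were not tested. Gls2 was left out of the X-ray test in thymus by the filter, which asks for a signal of 1 or more in 3 or more libraries. Low reads limit Gls2 in some single-end wt thymus libraries.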
